A study of Homo sapiens with 6 samples.

Results

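The set of genes described here holds CXCL8 and the other chemokines and cytokines that colon cancer epithelium can make. It was listed by name: CXCL1, CXCL2, CXCL3, CXCL5, CXCL8, CXCL16, CCL20 and CCL28, with IL1A and LIF as other cytokines. Of the 10 listed genes, 8 had a row among the 59192 features of the deposited table. CXCL5 and LIF had no row under their Ensembl identifiers, and their expression was not analysed here. The study asked how lowering heparanase (HPSE), the endoglycosidase that cuts heparan sulfate chains, alters gene expression in SW480, an established human colon adenocarcinoma cell line. Both groups were SW480 cells that stably express Cas9 from a puromycin-selected lentivirus and that were then infected with a lentivirus carrying a single guide RNA and EGFP. The guide targets HPSE in the knockdown line, which the labels call SW480-45 and which was taken as the line the study calls SW480-KD1, and it is a control guide in SW480-NC. RNA was sequenced from 3 libraries per line, which the study describes as independent experiments. A stable line of edited cells may hold cells with different edits. Each group is a single line, so the p-values compare these lines. Lower HPSE cannot be told apart from other differences between them. The study does not report sequencing of SW480-KD2, the line it made with another HPSE guide.

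Chemokines are small secreted proteins that steer leukocytes through G protein-coupled receptors. CXCL1, CXCL2, CXCL3, CXCL5 and CXCL8 carry a Glu-Leu-Arg (ELR) motif before their first cysteines, bind CXCR2 and attract neutrophils, and CXCL8 also binds CXCR1. Their genes lie in a cluster on the long arm of chromosome 4. They are inducible through NF-kB sites in their promoters, with an AP-1 site in that of CXCL8. Their mRNAs carry AU-rich elements that shorten mRNA life. CXCL16 is made as a membrane protein whose ectodomain is shed by ADAM10, CCL20 attracts CCR6-bearing cells, and CCL28 is a mucosal chemokine that binds CCR10. IL1A is an interleukin 1 cytokine kept in cells until damage or cleavage, and LIF signals through gp130.

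The start-site windows of the ELR genes share a letter sequence. The genes were listed by name, but NF-kB and AP-1 sites in such promoters were known beforehand, so a match is not an independent finding. RefSeq windows from 250 bases before to 50 bases after the start (GRCh38.p14) were found for 8 of the 10 genes, and GGAATTTCC, a form of the NF-kB motif, was searched on both strands. It stood in the windows of 5 of the 5 ELR genes and in none of the windows of CCL20, CCL28 and IL1A, whereas 153 of 27305 genes with a window, 0.56%, held it. The second motif searched was TGACTCA, a form of the AP-1 motif, which stood in the windows of CXCL8 and IL1A and in 6.05% of all genes with a window. The stretches below are printed 5′ to 3′ on the strand of the gene, with the motif matches in capitals, since they show how closely the CXCL1, CXCL2 and CXCL3 sites resemble each other and how the CXCL8 site differs around the shared core.
CXCL8: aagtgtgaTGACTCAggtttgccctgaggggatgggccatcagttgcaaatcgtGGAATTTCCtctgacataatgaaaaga
CXCL1: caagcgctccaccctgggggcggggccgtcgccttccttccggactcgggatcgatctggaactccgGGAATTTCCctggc
CXCL2: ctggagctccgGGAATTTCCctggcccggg
CXCL3: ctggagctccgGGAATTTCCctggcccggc
CXCL5: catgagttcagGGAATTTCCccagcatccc
They lie at chr4:73740424-73740504 on the plus strand for CXCL8, chr4:73869248-73869328 on the plus strand for CXCL1, chr4:74099254-74099283 on the minus strand for CXCL2, chr4:74038749-74038778 on the minus strand for CXCL3 and chr4:73998749-73998778 on the minus strand for CXCL5. The GGAATTTCC match began 91 bases before the RefSeq start of CXCL8, 90 before that of CXCL5, 78 before those of CXCL1 and CXCL3, and 77 before that of CXCL2. The most upstream annotated 5′ ends in GENCODE 29 lie before the match in CXCL2, CXCL3 and CXCL5, and after it in CXCL1 and CXCL8. A match describes letters in the window and says nothing of what binds there.

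HPSE itself was checked first. In the knockdown libraries its normalized counts were 136, 172 and 146, and in SW480-NC they were 269.9, 294.6 and 246. The knockdown line kept 56.1% of the control mean, and the groups did not overlap (log2 fold change −0.83, SE 0.14, adjusted p = 0.0547 from limma), so HPSE mRNA was lower in 3 of 3 libraries without passing the threshold of 0.05. It passed in DESeq2 (adjusted p = 0.000924) and in limma with no filter (0.0451) or a mean of at least 50 (0.0460), and not in edgeR (adjusted p = 0.0664). In limma it also missed the threshold with a pseudocount of 5 (adjusted p = 0.0569), TMM scaling (0.0595) or quantile normalization (0.0507). The same held without the intensity trend (0.126), with the replicate number as a block (0.169) and with any 1 library left out (0.0734 to 0.188). An exact permutation test of 3 libraries against 3 cannot go below p = 0.1. The study reports the HPSE knockdown as protein, by western blot, which these mRNA values do not measure. The libraries held between 33221323 and 39802365 reads. The epithelial markers summed to 112737 to 118045 normalized counts in the knockdown libraries and 122467 to 128246 in SW480-NC, with 5 of 8 in the table, mostly KRT8. Single epithelial markers went both ways and none passed: KRT8 had a log2 fold change of −0.21, VIL1 0.20 and CLDN4 2.10, the last with libraries from 180.3 to 6110 in the knockdown and 84.7 to 1469 in SW480-NC. PTPRC, CD3E, MS4A1, CD68 and TYROBP had no row, and the 3 leukocyte markers that did summed to 277 to 368 against 301 to 409, nearly all of it ITGAM. A missing row does not show a lack of expression, since 33265 features of the table carry no gene name. The fibroblast markers in the table, 3 of 6, summed to 229.9 to 360 against 198 to 253, mostly COL1A1, with COL1A2 and LUM near 0. The endothelial markers, 3 of 4, summed to 28.0 to 43.2 against 12.6 to 26.5, with CDH5 near 0. The part of these differences in the results below was not tested. Both groups were cultures of a single cell line, so the marker sums are not read as numbers of leukocytes, fibroblasts or endothelial cells. In bulk RNA of such a culture, fewer cells in a state and less RNA per cell cannot be told apart.

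CXCL8 was the 1 member of the 6 tested that passed the test, and it did so in the reported fit but not in all the alternatives given below. CXCL8 (ENSG00000169429, chr4:73740506-73743716, plus strand), the neutrophil attractant that gives the set its name, was at 203.5, 247.5 and 287.3 normalized counts in the knockdown libraries. In SW480-NC it was at 582.6, 519.6 and 430.5. Every knockdown library lay below every SW480-NC library. The means were 246 ± 41.9 and 511 ± 76.4 (SD, n = 3 each), so the knockdown line held 48.2% of the control level and the control was 2.08-fold higher. The log2 fold change was −1.05 (SE 0.17, adjusted p = 0.0435 from limma), and CXCL8 ranked 148 among the 21703 features by p. The call rests on reads that are few beside the highly expressed genes but well above the limit of counting: 193, 274 and 305 reads in the knockdown libraries and 557, 538 and 406 in SW480-NC. Scaled to the total of each library as RPM, this was 5.81 to 8.23 against 11.7 to 16.2. The spread between libraries was similar in both lines, with a coefficient of variation of 17.0% in the knockdown and 15.0% in SW480-NC. The study had itself listed CXCL8 among its changed genes from these libraries, so the call is not independent evidence of the direction. The study also measured CXCL8 by quantitative RT-PCR and reports that those results matched its sequencing.

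**Figure D1:**
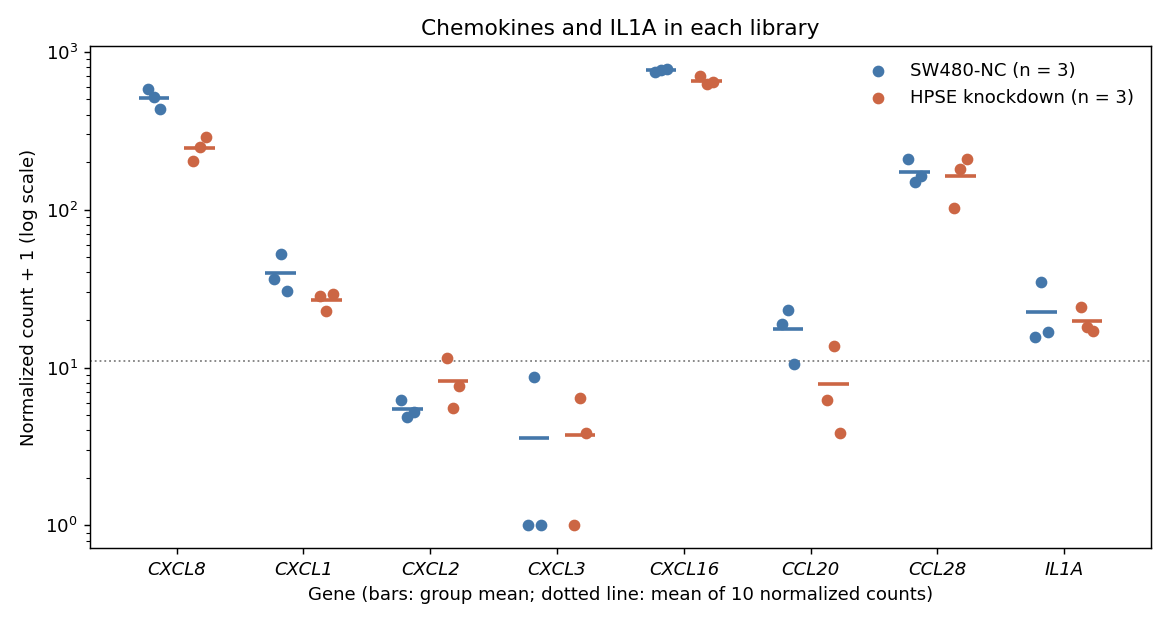
Normalized counts of the 8 members in the table, on a log axis of normalized count + 1, with a point for each of the 3 HPSE-knockdown and 3 SW480-NC libraries and a bar at each group mean. CXCL8 runs from 203.5 to 287.3 in the knockdown and from 430.5 to 582.6 in SW480-NC, while the points of CXCL2, CXCL3, CCL20, CCL28 and IL1A overlap between the lines.

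The size of the CXCL8 change was similar in every fit, whereas its side of the threshold was not. It passed an adjusted p of 0.05 by DESeq2 on the recovered reads (log2 fold change −1.05, adjusted p = 7.11e-06) and missed it narrowly by edgeR (−1.05, adjusted p = 0.0518). It was lost when any 1 of the 6 libraries was left out, with log2 fold changes from −1.17 to −0.92 and limma adjusted p from 0.0572 to 0.156. Of the 6 members tested, 1 passed at an adjusted p under 0.05 in limma, beside 0.802% of all 21703 features in either direction, 0.470% in the lower direction and 0.143% lower by at least 2-fold. With edgeR 0 of the 6 members passed, beside 0.627% of features, and with DESeq2 1 of the 4 that had an adjusted p, beside 4.74%.

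**Figure D2:**
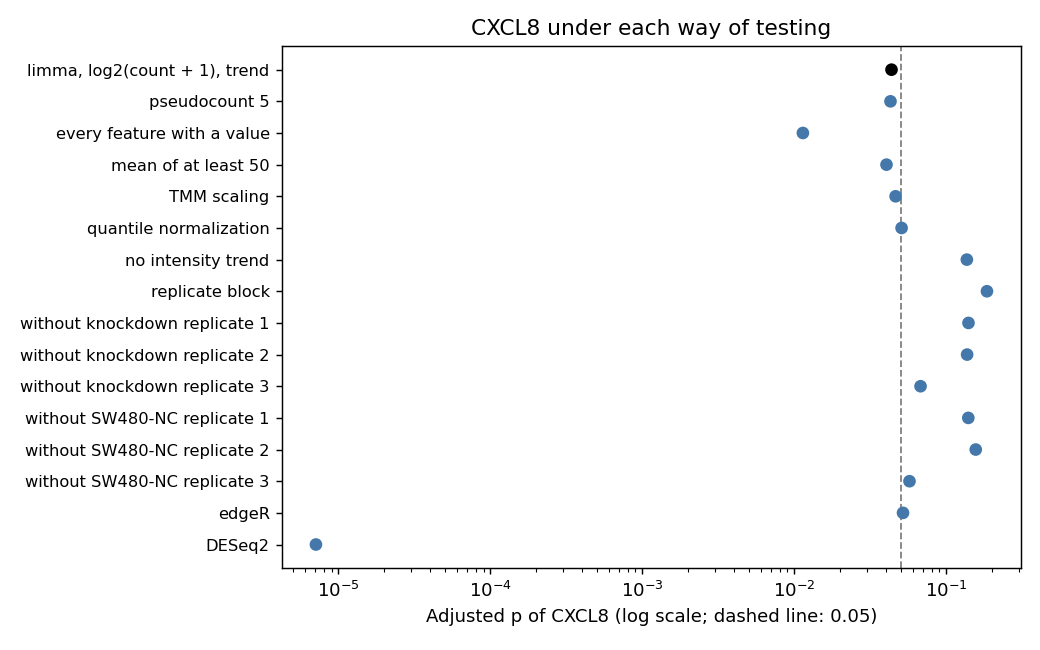
Adjusted p of CXCL8 on a log axis, 1 point for the reported limma fit (black), for each alternative processing or test and for each left-out library, with a dashed line at 0.05. The 6 fits with a library left out lie to the right of the line, from 0.0572 to 0.156, and DESeq2 lies far to the left at 7.11e-06.

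CXCL1, the closest expressed relative of CXCL8 on the chromosome and a CXCR2 ligand, was low. CXCL1 (ENSG00000163739, chr4:73869393-73871242, plus strand) was at 27.4, 21.7 and 28.3 normalized counts in the knockdown libraries and at 35.6, 51.2 and 29.7 in SW480-NC. The groups did not overlap, but the highest knockdown library and the lowest control library were nearly equal at 30 and 28 reads. The means were 25.8 ± 3.58 and 38.8 ± 11.1 (SD, n = 3 each), with a log2 fold change of −0.55 (SE 0.29, adjusted p = 0.397 from limma), which did not pass. Without SW480-NC replicate 2, the highest library, it was −0.33, and over the 6 fits with a library left out it ran from −0.71 to −0.33.

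CXCL2 and CXCL3, the other CXCR2 ligands in the table, were at the edge of detection and fell under the filter of a mean of 10 normalized counts. CXCL2 (ENSG00000081041, chr4:74097035-74099293, minus strand) had 10, 5 and 7 reads in the knockdown libraries and 5, 4 and 4 in SW480-NC. CXCL3 (ENSG00000163734, chr4:74036589-74038807, minus strand) had 0, 6 and 3 reads against 0, 8 and 0, and a count of 0 allows up to 3 reads. Both genes overlapped between the lines. With no filter, limma gave log2 fold changes of 0.54 (SE 0.68, adjusted p = 0.791) for CXCL2 and 0.50 (SE 1.08, adjusted p = 0.866) for CXCL3, so no difference was detectable at this depth. Reads of CXCL1, CXCL2 and CXCL3 may also be shared: 4.81%, 12.5% and 6.01% of the 50-base windows in their transcripts occur in another of the 3, whereas CXCL8 shared none with the other 51 genes of the family searched.

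Among the ELR members with a row, CXCL8 therefore made up most of the signal in both lines. CXCL5 had no row and is not part of the sum. The share of CXCL8 in the summed normalized counts of CXCL1, CXCL2, CXCL3 and CXCL8 was 84.3%, 88.7% and 88.4% in the knockdown libraries and 93.5%, 89.2% and 92.7% in SW480-NC. The shares of the lines did not overlap, although the highest knockdown share was within 1 percentage point of the lowest control share. The ratio of CXCL8 to CXCL1 overlapped, at 7.42, 11.4 and 10.2 against 16.4, 10.2 and 14.5, and whether both genes differed in their change was not tested.

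CXCL16, the membrane-bound chemokine that is also a scavenger receptor, was the most abundant member. CXCL16 (ENSG00000161921, chr17:4733526-4739922, minus strand) was at 700.1, 625 and 642.5 normalized counts in the knockdown libraries and at 743.7, 762 and 779.3 in SW480-NC. The groups did not overlap and the values within each line lay close together. The means of 656 ± 39.3 and 762 ± 17.8 (SD, n = 3 each) put the knockdown at 86.1% of the control, with a log2 fold change of −0.22 (SE 0.09, adjusted p = 0.294 from limma). The ratio of CXCL8 to CXCL16 in the same library, which does not depend on library scaling, was 0.291, 0.396 and 0.447 in the knockdown and 0.783, 0.682 and 0.552 in SW480-NC.

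CCL20, the ligand of CCR6, had few reads. CCL20 (ENSG00000115009, chr2:227805739-227817564, plus strand) was at 5.27, 12.6 and 2.83 normalized counts in the knockdown libraries and at 17.8, 22.2 and 9.54 in SW480-NC. Knockdown replicate 2 lay above SW480-NC replicate 3, so the lines overlapped. Its log2 fold change, −1.27 (SE 0.61, adjusted p = 0.354 from limma), rested on 3 to 23 reads per library. It was −0.89 with a pseudocount of 5, and it ran from −1.76 without knockdown replicate 2 to −0.85 without knockdown replicate 3.

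CCL28, the CCR10 ligand of mucosal epithelia, was at 101, 179.7 and 208.2 normalized counts in the knockdown libraries and at 208.2, 148.7 and 162.2 in SW480-NC (ENSG00000151882, chr5:43376645-43412391, minus strand). Knockdown replicate 1 stood below the other libraries of both lines. The log2 fold change was −0.13 (SE 0.28, adjusted p = 0.848 from limma), and it turned to 0.17 without that library and to 0.01 without SW480-NC replicate 1. IL1A (ENSG00000115008, chr2:112773915-112784590, minus strand), the cell-associated interleukin 1, was at 23.2, 17.2 and 16.0 against 14.6, 33.8 and 15.9. SW480-NC replicate 2 stood above the other libraries, and the log2 fold change of −0.10 (SE 0.40, adjusted p = 0.927 from limma) turned to 0.27 without it.

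**Figure D3:**
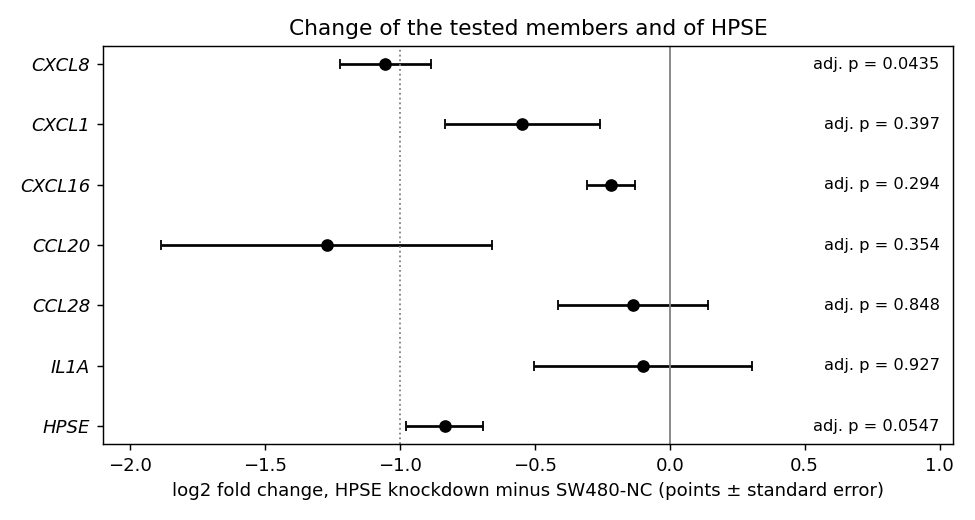
Log2 fold change of the 6 members tested and of HPSE, knockdown against SW480-NC, with bars of 1 standard error from limma on log2(normalized count + 1) and a dotted line at a 2-fold decrease. The 6 members lie between −1.27 and −0.10, and CXCL8 at −1.05 is the one with an adjusted p under 0.05.

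All 6 tested members had a log2 fold change below 0, with a median of −0.38 beside −0.00482 over all features tested. Their normalized counts did not overlap between the lines in 3 of the 6, CXCL8, CXCL1 and CXCL16, beside 23.4% of all features. For CXCL1 this rested on the scaling. Knockdown replicate 3 and SW480-NC replicate 3 were at 28.3 and 29.7 normalized counts but at 30 and 28 reads. An unadjusted p under 0.05 was reached by 2 of the 6, CXCL8 and CXCL16, beside 16.2% of all features. The directions of CCL28 and IL1A turned when 1 library was left out, and those of CXCL8, CXCL1, CXCL16 and CCL20 held in each such fit that gave a value. The 4 members that were not tested are CXCL2 and CXCL3, whose means were too low, and CXCL5 and LIF. With no filter CXCL2 and CXCL3 were above 0, at log2 fold changes of 0.54 and 0.50.

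Levels were compared between members as normalized counts per kilobase of annotated exon. In SW480-NC the order of mean levels was CXCL16 at 273, CXCL8 at 225, CCL28 at 38.2, CXCL1 at 29.9, CCL20 at 10.4, IL1A at 10.1, CXCL2 at 2.96 and CXCL3 at 1.16. Over the 3 libraries CCL28 and CXCL1, CCL20 and IL1A, and CXCL2 and CXCL3 overlapped and cannot be ordered. In the knockdown libraries the means per kilobase were 235 for CXCL16, 108 for CXCL8, 36.0 for CCL28, 19.9 for CXCL1, 8.85 for IL1A, 4.81 for CXCL2, 4.34 for CCL20 and 1.24 for CXCL3. There the libraries of CXCL2 and CCL20 overlapped, as did those of IL1A and CCL20 and those of CCL20 and CXCL3. CXCL16 lay above CXCL8 in every library of both lines.

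The AU-rich pentamer ATTTA was counted in the 3′ UTRs of GENCODE 29. AU-rich elements in such mRNAs were likewise known beforehand. CXCL8 held 9 copies, 7.19 per kilobase, a density reached by 3.19% of 9165 genes. CXCL2 held 10 copies at 13.9 per kilobase and CXCL3 held 7 at 10.4, the densest among the members. CXCL1 and CCL20 lay near CXCL8, at 7.08 and 6.65 per kilobase, and CXCL16 held 1 copy, 1.02 per kilobase. The median gene held 1.69 per kilobase.

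On chromosome 4 the cluster from CXCL8 to CXCL2 spans 358.788 kilobases and 9 protein-coding genes, 9.19 megabases from HPSE, and 5 of the 9 were in the table. Besides the members these include PF4V1, a platelet factor relative, which had 2 reads in 1 knockdown library and 0 in the other 5. RASSF6, the neighbour before the cluster, was at 343 ± 44.8 normalized counts in the knockdown and 435 ± 61.0 in SW480-NC (SD, n = 3 each), with overlapping libraries and a log2 fold change of −0.34 (adjusted p by limma = 0.309). Past the cluster, MTHFD2L, a mitochondrial folate enzyme, had a log2 fold change of −0.06 (adjusted p by limma = 0.809). The epidermal growth factor receptor ligands EREG and AREG, which SW480 cells made in amounts far above the chemokines, had log2 fold changes of −0.18 and −0.02 (adjusted p = 0.411 and 0.904 from limma). None of these tested neighbours passed the threshold. EPGN, a further gene of that growth factor family, fell under the filter, and AFM had no row.

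**Figure D4:**
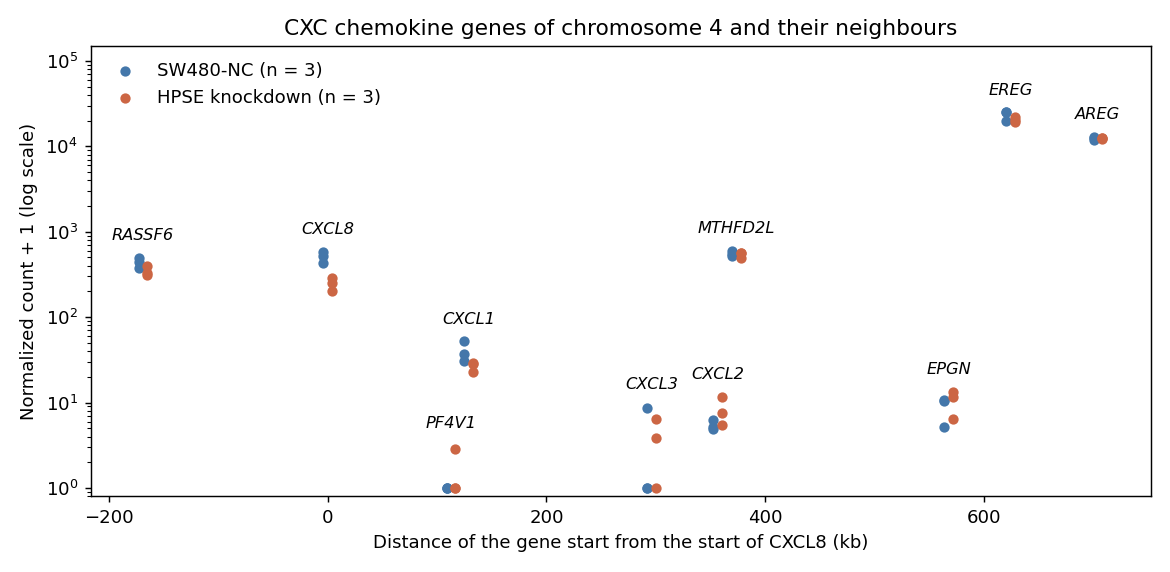
Normalized count + 1 on a log axis in each of the 3 SW480-NC and 3 HPSE-knockdown libraries, for the genes of the CXC cluster and its neighbours that are in the table, placed by the distance in kilobases of the gene start from that of CXCL8. The points of the lines separate for CXCL8 and, narrowly, for CXCL1, and overlap for the other genes, and EREG and AREG lie above all the others.

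Among the other chemokines, 11 of 36 listed had a row and 3 were tested, and in limma 0 passed and 0 reached an unadjusted p under 0.05, with a median log2 fold change of 0.17. Over all features tested, 0.802% passed in limma and 16.2% reached an unadjusted p under 0.05. CX3CL1 (fractalkine), a membrane-bound chemokine like CXCL16 and likewise shed by ADAM10, was at 122, 135 and 130 normalized counts in the knockdown libraries and 115, 100.4 and 85.9 in SW480-NC. The libraries did not overlap, and its log2 fold change of 0.37 (SE 0.16, adjusted p = 0.316 from limma) had the opposite sign to that of CXCL16. CCL22 had a log2 fold change of 0.17 (adjusted p by limma = 0.779), which ran from 0.03 to 0.35 with a library left out, lowest without SW480-NC replicate 3. The receptors of the ELR chemokines were near 0: CXCR1 had reads in 1 library and CXCR2 in 1 library, both of the knockdown line. Of 22 chemokine receptors 14 were in the table and 3 were tested. In limma 0 of them passed and 1 reached an unadjusted p under 0.05, with a median of −0.30. CXCR4, the CXCL12 receptor, was at 116, 93.9 and 69.7 in the knockdown libraries and 131, 123 and 132.5 in SW480-NC (log2 fold change −0.49, SE 0.20, adjusted p = 0.295 from limma). Without knockdown replicate 3 it was −0.30. CXCR6, the CXCL16 receptor, was at 23.9 ± 7.31 and 30.7 ± 12.4 (SD, n = 3 each) with a log2 fold change of −0.30 (adjusted p by limma = 0.757), which ran from −0.69 without SW480-NC replicate 2 to −0.10 without SW480-NC replicate 3.

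In the interleukin 1 pathway, 12 of 25 genes were in the table and 11 were tested. In limma 0 passed, beside 0.802% of all features, and 3 reached an unadjusted p under 0.05, beside 16.2%. All 3 of these were lower in the knockdown. The 11 tested genes had a median log2 fold change of −0.15, with 4 above 0 and 7 below. IL1B was higher in the knockdown, at 23.2, 38.8 and 23.6 normalized counts against 18.8, 19.3 and 17.0 in SW480-NC. Its libraries did not overlap (log2 fold change 0.57, SE 0.31, adjusted p = 0.415 from limma). The kinase IRAK4, which relays interleukin 1 receptor signals, was at 419.7, 339.6 and 349.5 normalized counts in the knockdown libraries and 524.1, 714.7 and 655.3 in SW480-NC. The libraries did not overlap (log2 fold change −0.77, SE 0.15, adjusted p = 0.0783 from limma). IL33, an alarmin of epithelial nuclei, was at 11.6, 14.4 and 22.6 against 38.7, 46.4 and 55.1, again with no overlap (−1.51, SE 0.32, adjusted p = 0.0979 from limma). By DESeq2, which called 4.74% of the features it adjusted, IRAK4, IL33 and the decoy receptor IL1R2 passed, at adjusted p = 0.000684, 0.0171 and 0.0463. IL1R2 is named because it passed there. By edgeR 0 genes of the lists around the set passed, beside 0.627% of all features.

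The genes of LIF and gp130 signaling gave 12 of 18 in the table and 7 tested, with a median log2 fold change of 0.04. In limma 0 passed, beside 0.802% of all features. An unadjusted p under 0.05 was reached by 2, both lower, beside 16.2% of all features in either direction. IL6R, the interleukin 6 receptor that pairs with gp130, was at 105.4, 76.8 and 77.3 normalized counts in the knockdown libraries and 123, 375.7 and 289 in SW480-NC. The lines did not overlap, but SW480-NC replicate 1 lay near the knockdown (log2 fold change −1.46, SE 0.39, adjusted p = 0.138 from limma), and without that library the adjusted p was 0.0382. DESeq2 gave IL6R an adjusted p of 0.000519. IL6ST, which encodes gp130, had a log2 fold change of −0.23 (adjusted p by limma = 0.289). Of 12 other cytokines 10 were in the table and 6 were tested, and in limma 0 passed, with 1 at an unadjusted p under 0.05 and a median of 0.23. CSF1, the macrophage growth factor, was at 25.3, 20.8 and 41.5 against 51.3, 42.5 and 58.3 (−0.82, SE 0.31, adjusted p = 0.249 from limma), and IL15 had a log2 fold change of 0.30 (adjusted p by limma = 0.565), which ran from 0.11 without knockdown replicate 3 to 0.49 without knockdown replicate 2.

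Regulators that act on the promoters and mRNAs of such genes made up the last lists. Of 15 NF-kB regulators 12 were tested and 0 passed in limma, with 7 above and 5 below a log2 fold change of 0 and a median of 0.08. An unadjusted p under 0.05 was reached by 1 higher and 3 lower. Over all features 16.2% reached it in either direction, and 0.802% passed in limma. NFKBIZ, an inducible nuclear cofactor of NF-kB, was at 2355, 1880 and 2067 normalized counts in the knockdown libraries and 2741, 2693 and 2837 in SW480-NC (log2 fold change −0.40, SE 0.10, adjusted p = 0.116 from limma and 0.0356 from DESeq2). NFKB1 was at −0.29 (adjusted p = 0.140 from limma), and the libraries of neither gene overlapped between the lines. All 8 tested of 9 listed proteins that bind AU-rich elements or act on such mRNAs missed the threshold in limma, with 7 of the 8 below 0, a median of −0.11 and 2 at an unadjusted p under 0.05. Among them were ZC3H12A at −0.20 and ZFP36L2 at −0.25 on the log2 scale (adjusted p = 0.256 and 0.280 from limma). Of the proteases that act on chemokines, ADAM10 was at −0.19 (adjusted p = 0.243 from limma) and DPP4, which trims many chemokines at the N-terminus, at −0.01 (adjusted p = 0.976 from limma).

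**Figure D5:**
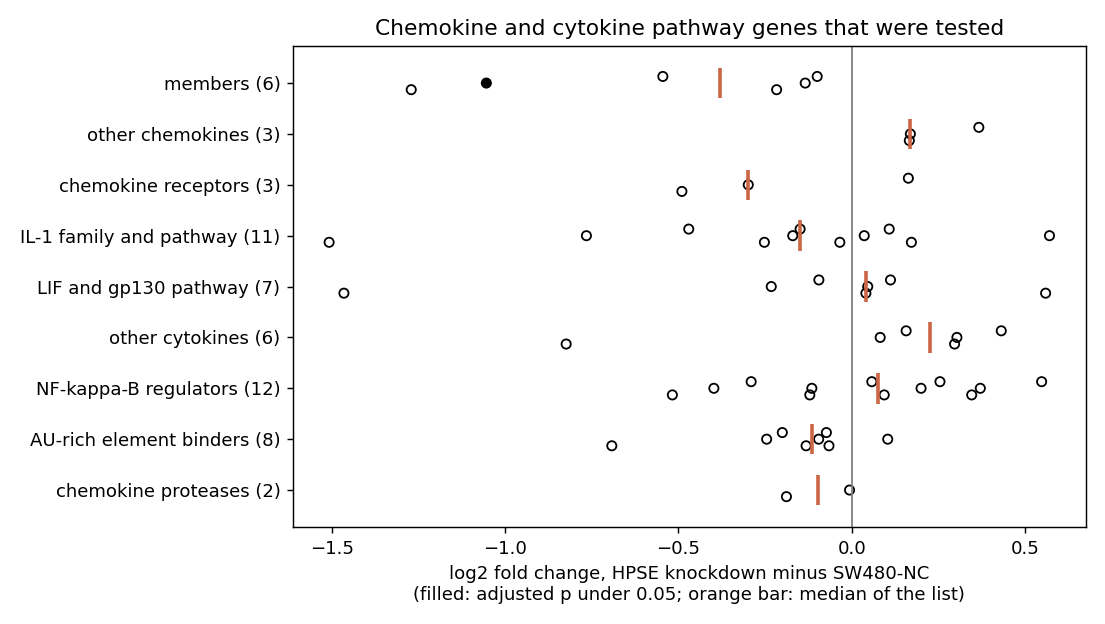
Log2 fold change of each tested gene in the set and in the 8 lists around it, a point per gene, filled where the adjusted p is under 0.05, with an orange bar at the median of each list and the number tested in parentheses. The median of the set is −0.38 and those of the other lists run from −0.30 to 0.23, and CXCL8 is the one gene with an adjusted p under 0.05.

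Genes whose pattern over the 6 libraries was most like that of CXCL8 were ranked by Pearson r of log2(normalized count + 1), over 9379 named features with a mean of at least 50. The highest r values, between 0.993 and 0.998, were those of IDI1, KPNA1, PICALM, KIF18A and NEBL. IDI1, an isomerase of the isoprenoid pathway, was lower in the knockdown, at 4718 ± 353 normalized counts against 6404 ± 376 (SD, n = 3 each). The lowest r values, between −0.995 and −0.989, were those of RPS10P3, BAIAP2-DT, SNHG19, NDUFB4 and SELENBP1. SELENBP1, a selenium-binding protein of differentiated epithelia, was at 1006 ± 50.2 against 625 ± 74.5. RPS10P3 is a processed pseudogene whose reads may belong to its parent gene. These r values are a description over 6 libraries that fall into the 2 lines, so they mostly carry the difference between the lines.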

How the data were processed

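RNA of 3 HPSE-knockdown and 3 SW480-NC libraries was sequenced on an Illumina HiSeq instrument. The submitters' processing notes name bcl2fastq, HISAT2, DESeq2 and GRCh38, the study's methods name Cuffdiff, and the counter, assembler and strand setting are not given in the sources used here. The deposited table gives a signal for each feature, which is the read count that the authors scaled by 1 size factor per library. They cover 25927 Ensembl genes, 25595 of them matched to a symbol, and 33265 assembler loci, which carry no gene name here and may hold reads of overlapping genes. All columns matched a sample.

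Dividing by the step in each library gave whole reads for 100% of values within 0.01 read. The 2 lines were compared with limma 3.58.1 (R 4.3.3) with an intensity trend on log2(normalized count + 1), over 21703 features with a mean of at least 10, and p-values were adjusted by Benjamini-Hochberg over these features. The threshold was an adjusted p of 0.05. Fold changes of low genes on this scale depend on the pseudocount and on counts of 0 in single libraries. CXCL3, for example, was at 0.50 with means of 2.75 normalized counts in the knockdown and 2.58 in SW480-NC. edgeR 4.0.16 called 136 features and DESeq2 1.42.0 called 767 on the recovered reads, beside 174 for limma. Other alternatives changed the pseudocount, the filter, the scaling or the spread model, blocked on the replicate number or left out 1 library. The steps were tested on simulated data. Figures were drawn with matplotlib 3.10.9 (Python 3.11.15).

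The members and gene lists were chosen with earlier results of these data known. Genes named are HPSE, the members, in each list those that passed and the 2 with the smallest p among the rest, the 5 most and 5 least like CXCL8, and the neighbours of the CXC cluster. CXCR1, CXCR2, IL1B, IL1R2 and the cell type markers are named outside this rule, after their values were seen. Coordinates are from GENCODE 29 on GRCh38.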

Additional observations from a re-analysis of the deposited data

How the results depend on the processing

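Over all features, 174 passed in the reported fit, 11 without the intensity trend, 12 with the replicate number as a block, 767 with DESeq2 (406 higher and 361 lower in the knockdown, against 72 and 102) and 36 to 104 when 1 library was left out, lowest without SW480-NC replicate 2. The count of members that passed was 1, and 0 with quantile normalization, without the trend, with the replicate block, with edgeR and without any 1 library (0 to 0). The log2 fold change of CXCL8 was then −1.09 with quantile normalization (limma adjusted p = 0.0507), −1.05 without the trend (0.136), −1.05 with the replicate block (0.185), −1.05 with edgeR (0.0518) and −1.17 to −0.92 without 1 library; it passed with a pseudocount of 5, with no filter, with a mean of at least 50, with TMM scaling and with DESeq2. In the interleukin 1 pathway 1 gene passed with no filter (IRAK4) and 3 with DESeq2 (IRAK4, IL33 and IL1R2), in LIF and gp130 signaling 1 with DESeq2 and 0 to 1 without 1 library (IL6R), and among NF-kB regulators 1 with DESeq2 (NFKBIZ). The cause was not tested. Without 1 library the log2 fold change ran from −0.34 to 0.17 for CCL28, −0.31 to 0.27 for IL1A and −0.064 to 0.045 for DPP4, which was at 0.000959 with TMM scaling, 0.056 with quantile normalization and 0.00217 with edgeR. Same-numbered libraries did not deviate together (correlations of −0.0202 to 0.00741), so no pairing by number was seen. Such correlations cannot settle whether the experiments were paired. CCL20 fell under the filter without SW480-NC replicate 2. Genes under about 10 reads, as CXCL2 and CXCL3, are limited by depth.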
